A study of Homo sapiens with 12 samples.

Results

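Transcripts of 10 axon guidance genes, *SLIT2*, *SLIT3*, *ROBO1*, *NTN4*, *UNC5B*, *SEMA3A*, *SEMA3C*, *PLXNA2*, *NRP1* and *NRP2*, were measured in HLE cells, a hepatocellular carcinoma (HCC) cell line, after depletion of YAP and TAZ or of ATF4. The 10 genes are members of the 26258 genes in the deposited table and were found there by their Entrez identifiers. The set was chosen on measured values, the higher *SLIT2* and the lower *NTN4* in cells depleted of YAP and TAZ, and was joined by receptors and semaphorins of the same signalling systems. Transient siRNA transfection was used to deplete YAP together with TAZ (siY/T) or ATF4 alone (siATF4), next to a non-targeting control (siCtrl), and every arm received DMSO as vehicle or Sorafenib (Srf), an inhibitor of several kinases. This gave 6 groups of 2 libraries, 12 in all, from 1 cell line for which the labels give no other modification. Per the labels Sorafenib was given at 5 µM, with no time stated, whereas the study's own text names a slightly higher dose and an exposure of less than a day, so the dose is uncertain. The labels do not say whether the 2 libraries of a group came from separate cultures, so p-values measure the spread between libraries, which may be technical.

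Axon guidance cues are secreted or membrane-bound proteins that attract or repel migrating cells and growing axons. Slit proteins bind Robo receptors and mostly repel, netrins act through DCC, neogenin and UNC5 receptors, and class 3 semaphorins signal through neuropilins that bind the ligand and plexins that pass the signal on. Outside the nervous system the same systems act in vessel growth, epithelial adhesion and the migration of tumor cells. YAP and TAZ are transcriptional co-activators of the Hippo pathway that reach DNA mainly through TEAD factors, and ATF4 is the transcription factor of the integrated stress response.

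The promoters of *SLIT2* and *NTN4* are shown because these genes lay on opposite sides of siCtrl in siY/T cells. Sequences came from the RefSeq promoter table of GRCh38.p14, which gives 250 bases before and 50 bases after each transcription start and held 10 entries for 7 of the 10 genes. The 250 bases before each start are written 5′ to 3′ on the strand of the gene. They lie at chr4:20251655-20251904 on the plus strand for *SLIT2*, and on the minus strand at chr12:95791156-95791405 and chr12:95790765-95791014 for the 2 starts of *NTN4*, which are 391 bases apart. Capitals mark a match to a searched motif.
SLIT2: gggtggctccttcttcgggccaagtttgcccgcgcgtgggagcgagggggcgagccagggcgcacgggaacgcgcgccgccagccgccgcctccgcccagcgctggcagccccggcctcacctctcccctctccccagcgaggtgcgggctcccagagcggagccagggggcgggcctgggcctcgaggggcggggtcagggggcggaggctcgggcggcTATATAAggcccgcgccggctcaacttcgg
NTN4 start 1: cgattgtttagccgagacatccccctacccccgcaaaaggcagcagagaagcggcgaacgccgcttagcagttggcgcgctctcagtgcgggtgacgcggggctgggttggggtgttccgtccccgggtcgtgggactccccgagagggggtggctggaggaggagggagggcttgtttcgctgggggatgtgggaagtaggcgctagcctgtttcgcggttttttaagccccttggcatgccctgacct
NTN4 start 2: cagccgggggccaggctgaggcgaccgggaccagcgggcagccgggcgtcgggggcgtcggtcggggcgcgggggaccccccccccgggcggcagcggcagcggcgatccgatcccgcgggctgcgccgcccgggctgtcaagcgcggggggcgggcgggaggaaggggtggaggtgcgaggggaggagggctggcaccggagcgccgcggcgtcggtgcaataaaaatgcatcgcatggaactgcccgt

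In the whole windows of 300 bases, 4 motifs were searched on both strands. These were the TEAD core GGAATG, the AP-1 site TGANTCA, the composite site of C/EBP and ATF factors TGATGNAAT and the TATA box TATANAA, of which the last was chosen after the sequences were seen. The TEAD core was found once among the 10 windows of the set, in *NTN4*, from 27 to 32 bases after its start 1. It is shown in capitals within the 30 bases at chr12:95791112-95791141.
NTN4 site: ctactgctcttaGGAATGttccgggagaag
Of the 35116 promoters of this length in the table, 14% held the TEAD core. The TATA box was found once, in *SLIT2*, from 30 to 24 bases before the start, and 9.1% of all promoters held it. The AP-1 site and the composite site were found in 0 of the 10 windows, against 7.71% and 0.991% of all promoters. A match describes letters in this window, and no factor binding was measured here.

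Values are CPM, a gene's reads scaled to a library of 1000000. Library depth was 41408348 to 53619732 reads on genes, and a single read was worth 0.0186 to 0.0241 CPM. The libraries matched their labels. *YAP1* was 277 and 280 CPM in the siCtrl DMSO libraries and 46.6 and 57.7 CPM in the siY/T DMSO libraries. *WWTR1*, which encodes TAZ, was 170 and 173 against 53.4 and 68.6 CPM, and *ATF4* was 248 and 249 CPM in siCtrl DMSO against 96.2 and 101 CPM in siATF4 DMSO libraries. In Sorafenib *YAP1* was 275 and 259 against 48.7 and 47.0 CPM with siY/T, *WWTR1* was 154 and 145 against 49.3 and 54.5 CPM, and *ATF4* was 484 and 492 CPM against 84.6 and 90.6 CPM with siATF4. Each depletion also lowered a target of the other in 1 of the 2 treatments. *WWTR1* fell by 0.70 on the log2 scale with siATF4 in DMSO (adjusted p = 1.29e-05, limma with Benjamini-Hochberg adjustment), while its value in Sorafenib was -0.09 (limma, adjusted p = 0.3688), a difference of 0.605 between the treatments (limma interaction, adjusted p = 0.0021). *ATF4* fell by 0.63 with siY/T in Sorafenib (adjusted p = 1.84e-07, limma likewise), and its value in DMSO was -0.30 (limma, adjusted p = 6.95e-05), below the fold of 0.58 that a call also required.

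The 2 libraries of a group differed beyond counting noise in all 6 groups, with a chi-square per gene of 2.98 in siCtrl DMSO to 20.7 in siY/T DMSO. Of 7 hepatocyte markers 1, *SERPINA1*, reached 1 CPM in any library, *APOB* was at 0 in all, and the summed level was 1.28 to 2.44 CPM in siY/T cells and 0.04 to 0.62 CPM in the others, so the defining transcripts of hepatocytes were near or at 0 in these HCC cells. The 5 endothelial markers summed to 0.06 to 0.28 CPM. The 5 mesenchymal markers summed to 2582 to 3582 CPM. Of 5 epithelial markers, *KRT8*, *KRT18* and *CDH1* reached 1 CPM, and their sum was lower in siY/T cells, at 978 to 1339 CPM, than in siATF4 cells, at 2140 to 2792 CPM, and siCtrl cells, at 3172 to 3333 CPM. Of the 3 tested, 1 was called higher and 2 lower with siY/T in DMSO, against 11.0% and 3.61% of all genes. In Sorafenib 0 were higher and 2 lower, against 6.11% and 3.84%. The sum thus does not stand for each marker. Of 5 neuronal markers, *TUBB3*, *SYT1* and *MAP2* reached 1 CPM while *RBFOX3* and *SNAP25* stayed at or below 0.04 CPM. Their sum was 130 to 207 CPM in siATF4 cells, 322 to 357 CPM in siCtrl cells and 324 to 360 CPM in siY/T cells. This sum hides single markers too. With siY/T 2 of the 3 tested were called higher in DMSO and 1 in Sorafenib, against 11.0% and 6.11% of all genes, and 0 lower. With siATF4 3 were called lower in each treatment, against 14.1% and 18.7%, and 0 higher. The sum of 5 immune markers was nearly all *CD68*, with *CD3E* at 0 in all libraries, and was 61.6 to 75.4 CPM in siATF4 cells and 20.4 to 33.1 CPM in the others. The part of these markers in the results was not tested.

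Of the 10 genes, 8 reached 1 CPM in 2 or more libraries, the filter used, and were among the 13515 genes tested. *UNC5B*, which encodes a netrin receptor that mediates repulsion, had 3 to 16 reads per library and at most 0.30 CPM. *PLXNA2*, which encodes a plexin of the class 3 semaphorin receptors, had 0 to 2 reads, and 0 reads allow up to 3. Neither receptor was tested. For *UNC5B* the siCtrl Sorafenib libraries had 13 and 14 reads (0.262 and 0.285 CPM). The siY/T Sorafenib libraries had 8 and 3 reads (0.171 and 0.070 CPM) and the siATF4 Sorafenib libraries 11 and 11 reads (0.209 and 0.235 CPM). With so few reads and 2 libraries per group, no difference is read from these values. The libraries of *UNC5B* overlapped in DMSO and between the treatments. Just inside the filter, *NRP2* reached 1 CPM in 10 of 12 libraries, and *SLIT2* reached it in 12 with a lowest value of 1.05 CPM.

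Levels were compared between genes only after division by the length of the reference transcript. In siCtrl DMSO cells *NTN4* was highest at 68.4 CPM per kb, followed by *SEMA3C* at 49.7, *SLIT3* at 24.4, *ROBO1* at 14.8, *NRP1* at 10.4 and *SEMA3A* at 4.55 CPM per kb. *NRP2* and *SLIT2* were at the low end with 0.492 and 0.276 CPM per kb. In siY/T Sorafenib cells *SLIT2* was at 2.66 CPM per kb, still below *SLIT3* at 42.2 CPM per kb, while *NTN4* was at 32.8 CPM per kb and below *SEMA3C* at 38.5 CPM per kb.

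**Figure D1:**
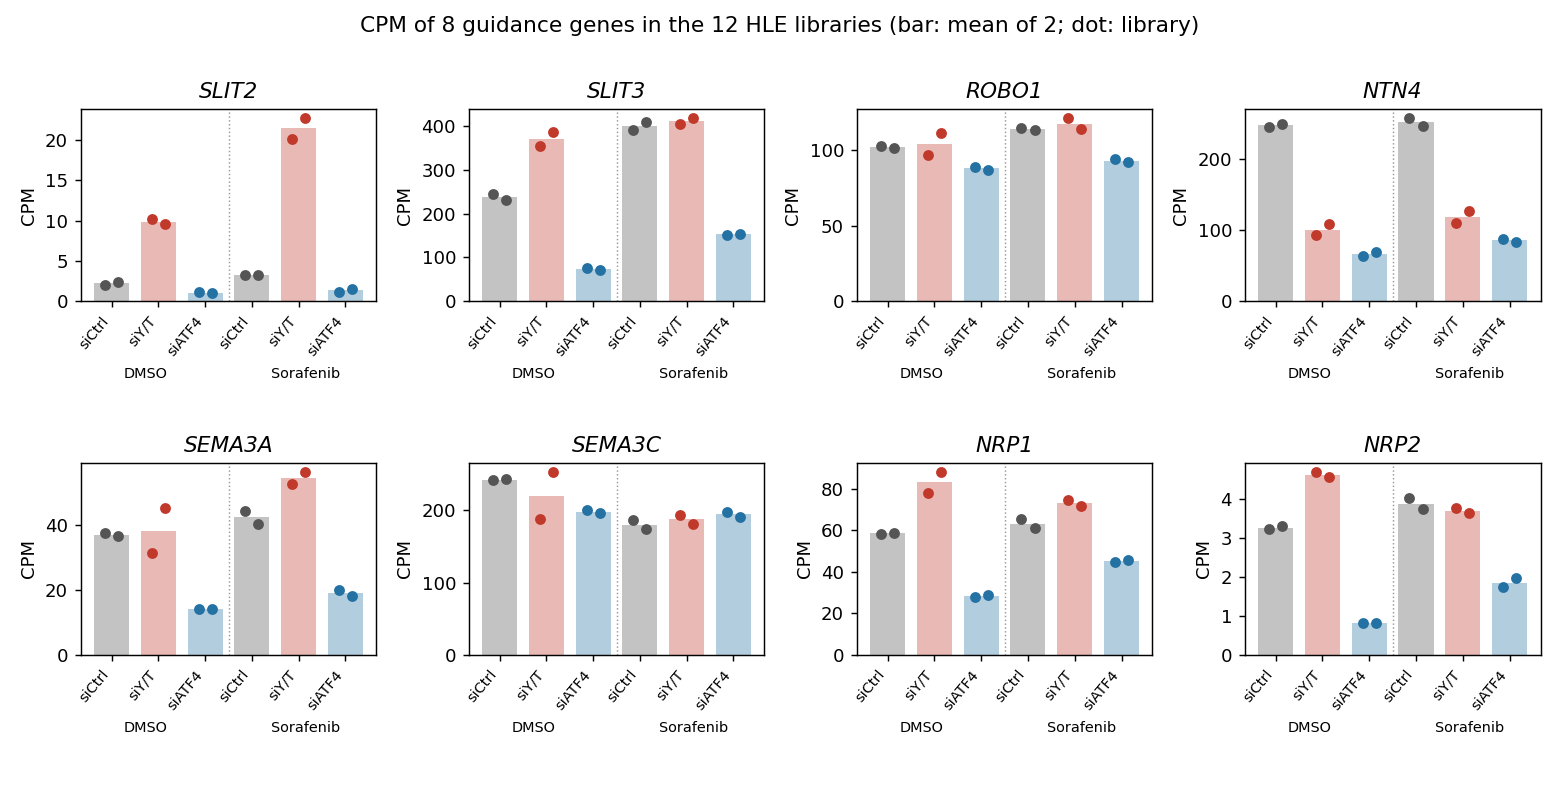
CPM (y axis, linear from 0) of the 8 genes that passed the filter, by siRNA (x axis) in DMSO to the left and Sorafenib to the right of the dotted line. Bars are the mean of 2 libraries and dots the libraries. *SLIT2* is highest in the siY/T Sorafenib libraries, at 20.2 and 22.7 CPM, and *NTN4* is highest in the siCtrl libraries, at 246 to 258 CPM.

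*SLIT2* (Entrez 9353) encodes a secreted ligand of the Robo receptors and lies on the plus strand at chr4:20253528-20622184 of GRCh37. Of the 8 genes it had the largest ratio between its highest and its lowest library, 22.7 and 1.05 CPM. Its CPM was 2.03 and 2.42 in siCtrl DMSO libraries and 10.2 and 9.59 in siY/T DMSO libraries. With Sorafenib it was 3.27 and 3.28 in siCtrl and 20.2 and 22.7 in siY/T libraries. In siATF4 it was 1.14 and 1.05 CPM in DMSO and 1.18 and 1.52 CPM in Sorafenib. The groups kept the order siY/T, siCtrl, siATF4 in both treatments with no overlap of libraries. These values rest on 397 to 971 reads in siY/T libraries and on 53 to 71 reads in siATF4 libraries.

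Since the set was chosen on the contrast of siY/T with siCtrl, its values there are given without a test. The log2 fold change of *SLIT2*, on the scale of log2(CPM + 0.5), was 1.93 (SE 0.11) in DMSO, a 3.81-fold higher level, and 2.54 (SE 0.11) in Sorafenib, a 5.81-fold higher level. The pseudocount lowers such values for a gene of few CPM. With a pseudocount of 0.1 they were 2.11 and 2.67.

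Sorafenib raised *SLIT2* in siY/T cells, whose libraries also entered the contrast that chose the gene, and where its mean was 9.88 ± 0.41 CPM in DMSO and 21.4 ± 1.79 CPM in Sorafenib (SD, n = 2). This was a change of 1.08 on the log2 scale (SE 0.11, limma with Benjamini-Hochberg adjustment over all genes, adjusted p = 5.95e-06). In siCtrl cells the log2 fold change was 0.47 (SE 0.11, limma, adjusted p = 0.0025), which passed the p threshold of 0.05 and fell short of the 0.58 that a call also required. In siATF4 cells it was 0.21 (SE 0.11, limma, adjusted p = 0.14, 95% interval -0.03 to 0.45). The difference of the siY/T effect between Sorafenib and DMSO was 0.61 (SE 0.16) and was not tested, because both effects chose the gene. With siATF4 *SLIT2* fell by 0.77 on the log2 scale in DMSO (SE 0.11, limma, adjusted p = 4.15e-05) and by 1.04 in Sorafenib (SE 0.11, limma, adjusted p = 2.09e-06). The pseudocount reduces the size of these falls as well. The siATF4 and siY/T comparisons share their siCtrl libraries.

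*SLIT3* (Entrez 6586), a paralogous Slit ligand, lies on the minus strand at chr5:168088745-168728143 of GRCh37. Its CPM was 244 and 230 in siCtrl DMSO, 353 and 386 in siY/T DMSO and 75.6 and 71.9 in siATF4 DMSO libraries. With Sorafenib it was 390 and 409 in siCtrl, 403 and 417 in siY/T and 151 and 155 in siATF4 libraries. The siATF4 libraries were the lowest in each treatment, and siCtrl and siY/T libraries overlapped with Sorafenib while they were apart in DMSO. The log2 fold change of siY/T over siCtrl was 0.64 (SE 0.05) in DMSO and 0.04 (SE 0.05) in Sorafenib. The DMSO value was under the fold threshold of 0.58 without replicate 2 of siY/T DMSO (0.573), under TMM scaling, in edgeR and in DESeq2. The Sorafenib value turned to -0.02 under TMM scaling and in edgeR and DESeq2. The siY/T effect in Sorafenib was 0.60 lower than in DMSO, a difference of -0.60 (SE 0.07, limma interaction, adjusted p = 2.45e-04). This difference is built from the contrasts that chose the set, so its test is not independent of that choice. Sorafenib itself raised *SLIT3* by 0.75 in siCtrl cells (SE 0.05, limma, adjusted p = 7.75e-08) and by 1.05 in siATF4 cells (SE 0.05, limma, adjusted p = 1.08e-08), whereas the value in siY/T cells was 0.15 (SE 0.05, limma, adjusted p = 0.0234). With siATF4 it fell by 1.68 in DMSO and by 1.38 in Sorafenib (SE 0.05 each, limma, adjusted p = 2.94e-11 and 9.63e-11). Exons of antisense genes shared 3.4% and 2.0% of its transcript, and the strand setting of the counting was not given in the sources used here.

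*ROBO1* (Entrez 6091), at chr3:78646389-79817148 of GRCh37 on the minus strand, encodes a receptor of Slit proteins and varied least of the receptors. It lay between 86.7 and 121 CPM in all 12 libraries. Its log2 fold change with siY/T was 0.02 (SE 0.06) in DMSO and 0.05 (SE 0.06) in Sorafenib, with overlapping libraries in both, and the latter was -0.01 under TMM scaling. With siATF4 the libraries were lower than the siCtrl libraries in both treatments, by 0.22 in DMSO (limma, adjusted p = 0.0055) and by 0.29 in Sorafenib (limma, adjusted p = 5.57e-04), values below the fold threshold.

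*NTN4* (Entrez 59277), at chr12:96051583-96184967 of GRCh37 on the minus strand, encodes a secreted netrin that binds laminins of the basement membrane. Its CPM was 246 and 250 in siCtrl DMSO, 93.1 and 109 in siY/T DMSO and 63.9 and 69.7 in siATF4 DMSO libraries. In Sorafenib it was 258 and 247 in siCtrl, 110 and 127 in siY/T and 88.5 and 83.3 in siATF4 libraries. Both depletions thus had less *NTN4* than every siCtrl library, and siATF4 had the least in each treatment. The siCtrl libraries overlapped between the treatments. The log2 fold change of siY/T over siCtrl, given without a test, was -1.30 (SE 0.08) in DMSO, a 2.46-fold lower level, and -1.09 (SE 0.08) in Sorafenib, a 2.13-fold lower level. With siATF4 *NTN4* fell by 1.88 in DMSO (SE 0.08, limma, adjusted p = 3.19e-10) and by 1.55 in Sorafenib (SE 0.08, limma, adjusted p = 1.30e-09). These 2 tests use the siCtrl libraries of the contrast that chose *NTN4*, so they are not independent of that choice. The siATF4 effect differed between the treatments by 0.33 (SE 0.11, limma interaction, adjusted p = 0.0267), a call that was lost without replicate 1 or without replicate 2 of siCtrl DMSO, without replicate 1 of siATF4 DMSO, without replicate 2 of siCtrl Sorafenib and without replicate 1 of siATF4 Sorafenib (limma, adjusted p = 0.0599 to 0.1133), and also with no filter on low values and under quantile normalization (limma, adjusted p = 0.0738 and 0.1416). The siY/T effect differed by 0.21 (SE 0.11), which was not tested. In siCtrl cells Sorafenib left a log2 fold change of 0.03 (SE 0.08, limma, adjusted p = 0.778, 95% interval -0.14 to 0.19), which was -0.005 under TMM scaling and in edgeR and -0.015 in DESeq2. In siY/T and siATF4 cells it was 0.24 and 0.36 (limma, adjusted p = 0.0211 and 0.0018), below the fold threshold.

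*SEMA3A* (Entrez 10371), at chr7:83585093-84122040 of GRCh37 on the minus strand, encodes a repulsive semaphorin that binds NRP1. Its CPM was 37.4 and 36.5 in siCtrl DMSO, 31.2 and 45.2 in siY/T DMSO and 14.1 and 14.1 in siATF4 DMSO libraries. In the Sorafenib arm the values were 44.3 and 40.2 in siCtrl, 52.6 and 56.2 in siY/T and 19.9 and 18.2 in siATF4 libraries. The siATF4 libraries were the lowest, and the 2 siY/T DMSO libraries lay on either side of siCtrl. With siATF4 *SEMA3A* fell by 1.36 in DMSO (SE 0.12, limma, adjusted p = 4.73e-07) and by 1.13 in Sorafenib (SE 0.12, limma, adjusted p = 2.09e-06). The log2 fold change with siY/T was 0.02 (SE 0.12) in DMSO, which was -0.24 without replicate 2 of siY/T DMSO, and 0.36 (SE 0.12) in Sorafenib. In siY/T cells Sorafenib gave 0.53 (SE 0.12, limma, adjusted p = 0.0028), below the fold threshold, and without replicate 2 of siY/T DMSO it gave 0.79 and a call (limma, adjusted p = 6.56e-08).

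*SEMA3C* (Entrez 10512), at chr7:80371854-80551675 of GRCh37 on the minus strand, encodes a class 3 semaphorin that binds both neuropilins, and it was not called with siATF4. Its CPM was 242 and 243 in siCtrl DMSO, 187 and 253 in siY/T DMSO and 200 and 196 in siATF4 DMSO libraries. Sorafenib libraries had 186 and 174 in siCtrl, 194 and 182 in siY/T and 198 and 190 in siATF4 libraries. Libraries of siY/T and siCtrl overlapped in both treatments. The log2 fold change with siY/T was -0.16 (SE 0.10) in DMSO, which was 0.06 without replicate 1 and -0.37 without replicate 2 of siY/T DMSO, and 0.06 (SE 0.10) in Sorafenib. For siATF4 the log2 fold change was -0.29 in DMSO (SE 0.10, limma, adjusted p = 0.0165) and 0.11 in Sorafenib (SE 0.10, limma, adjusted p = 0.3252, 95% interval -0.10 to 0.32). The difference between these effects was 0.40 (SE 0.14, limma interaction, adjusted p = 0.0324), and the call was lost without any 1 of 7 of the 8 libraries compared, all but replicate 1 of siCtrl Sorafenib (limma, adjusted p = 0.0601 to 0.1104), as well as with no filter and under quantile normalization (limma, adjusted p = 0.0966 and 0.0734). In siCtrl cells Sorafenib gave -0.43 (SE 0.10, limma, adjusted p = 0.0018), the lowest of the 8 genes and below the fold threshold.

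*NRP1* (Entrez 8829), at chr10:33466420-33625190 of GRCh37 on the minus strand, encodes the co-receptor of SEMA3A and of vascular endothelial growth factor. Its CPM was 58.1 and 58.9 in siCtrl DMSO, 78.2 and 88.1 in siY/T DMSO and 27.9 and 28.7 in siATF4 DMSO libraries. With Sorafenib it was 65.5 and 61.0 in siCtrl, 74.5 and 71.7 in siY/T and 44.5 and 45.7 in siATF4 libraries. The 3 siRNA groups did not overlap in either treatment. With siATF4 *NRP1* fell by 1.04 in DMSO (SE 0.06, limma, adjusted p = 6.68e-09), and the log2 fold change in Sorafenib was -0.48 (SE 0.06, limma, adjusted p = 7.12e-06), below the fold threshold. This difference was 0.55 (SE 0.08, limma interaction, adjusted p = 2.27e-04). The log2 fold change with siY/T was 0.50 (SE 0.06) in DMSO and 0.21 (SE 0.06) in Sorafenib. A test of their difference is not independent of the choice of the set, which used these contrasts. The difference of -0.29 (SE 0.08, limma interaction, adjusted p = 0.0256) lost its call without either siCtrl DMSO library, without replicate 1 of siCtrl Sorafenib and without replicate 2 of siY/T Sorafenib (limma, adjusted p = 0.0713 to 0.0988), and in a fit of the compared groups alone (limma, adjusted p = 0.0545). Sorafenib raised *NRP1* in siATF4 cells, by 0.66 (SE 0.06, limma, adjusted p = 1.81e-06). Antisense exons shared 5.9% of its transcript.

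*NRP2* (Entrez 8828), at chr2:206546714-206662857 of GRCh37 on the plus strand, encodes the neuropilin that binds SEMA3F and was measured on 38 to 241 reads. Its CPM was 3.23 and 3.31 in siCtrl DMSO, 4.70 and 4.56 in siY/T DMSO and 0.81 and 0.81 in siATF4 DMSO libraries. With Sorafenib it was 4.03 and 3.75 in siCtrl, 3.77 and 3.65 in siY/T and 1.74 and 1.97 in siATF4 libraries. It was lowest in siATF4 libraries, and siY/T was above siCtrl in DMSO and overlapped it in Sorafenib. With siATF4 *NRP2* fell by 1.52 in DMSO (SE 0.09, limma, adjusted p = 1.45e-08) and by 0.90 in Sorafenib (SE 0.09, limma, adjusted p = 1.54e-06), the latter by 0.55 and no longer a call under quantile normalization. As for *SLIT2*, the pseudocount reduces the size of such changes at so few CPM. The siATF4 effects differed by 0.62 (SE 0.13, limma interaction, adjusted p = 0.0025), and Sorafenib raised *NRP2* by 0.84 in siATF4 cells (SE 0.09, limma, adjusted p = 1.20e-05). For siY/T the log2 fold change was 0.45 (SE 0.09) in DMSO and -0.06 (SE 0.09) in Sorafenib. Here too the test of the difference is not independent of the choice of the set. The difference of -0.51 (SE 0.13, limma interaction, adjusted p = 0.0172) was no call without replicate 1 of siCtrl DMSO or replicate 1 of siCtrl Sorafenib (limma, adjusted p = 0.0535 and 0.0639), under quantile normalization (limma, adjusted p = 0.0661) or in DESeq2 (adjusted p = 0.1186).

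**Figure D2:**
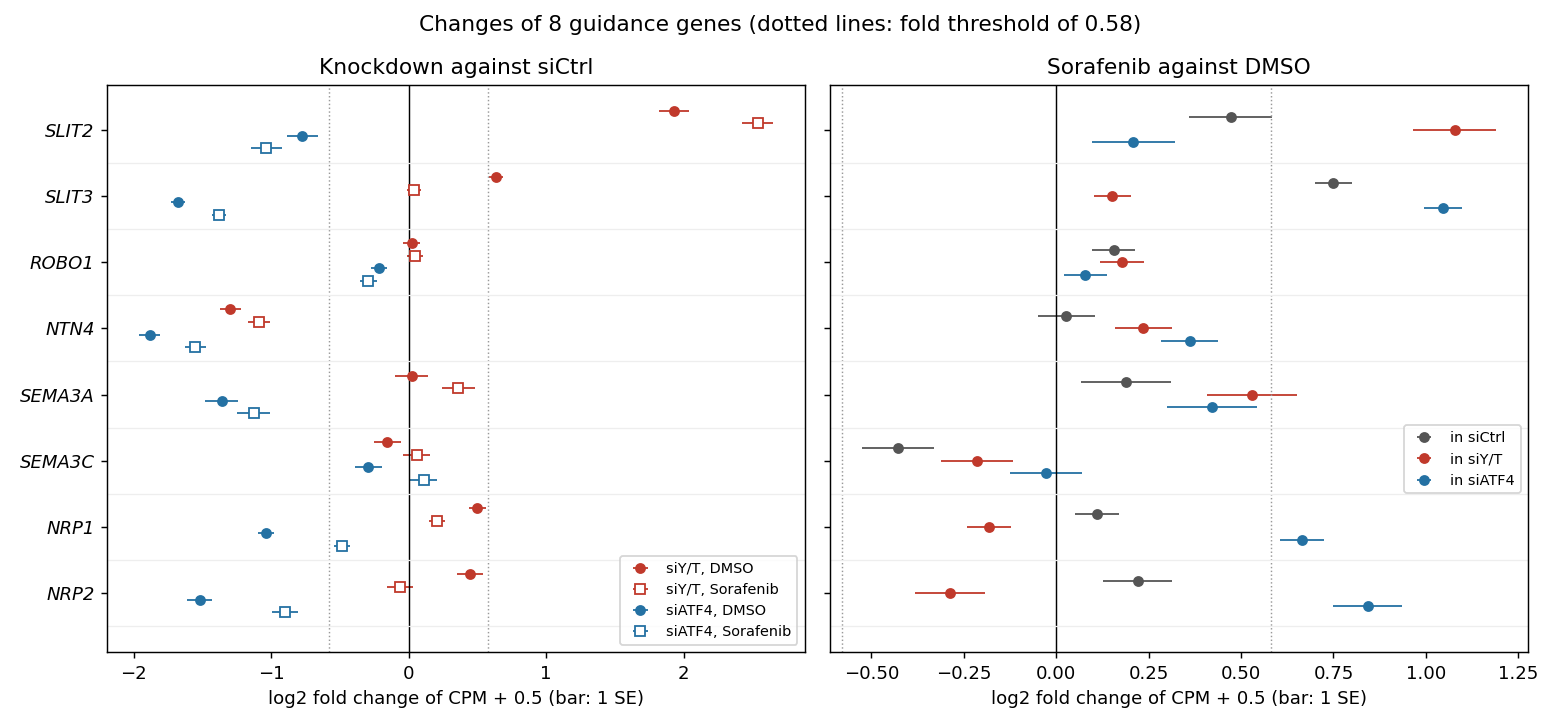
Log2 fold change of CPM + 0.5 (x axis) of the 8 genes (y axis), for each depletion over siCtrl (left) and for Sorafenib over DMSO (right), with bars of 1 SE from the fit of all 12 libraries and dotted lines at the fold threshold of 0.58. *SLIT2* lies at 1.93 and 2.54 with siY/T and at -0.77 and -1.04 with siATF4, while *NTN4* is below 0 in all 4 comparisons on the left.

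Counted over the set, siY/T in DMSO left 2 of the 8 genes above the fold threshold, *SLIT2* and *SLIT3*, against 11.0% of all genes tested, and 1 below it, *NTN4*, against 3.62%. *SLIT3* was no longer above it without replicate 2 of siY/T DMSO, under TMM scaling, in edgeR or in DESeq2, and *NRP1* joined at 0.587 without replicate 1 of siY/T DMSO, so that 2 to 4 genes were past the threshold when 1 library was left out. In Sorafenib 1 was above, *SLIT2*, against 6.11%, and 1 below, *NTN4*, against 3.85%. Nothing is read from these counts, since this contrast chose the set. With siATF4 in DMSO, 6 of the 8 genes were called lower, *SLIT2*, *SLIT3*, *NTN4*, *SEMA3A*, *NRP1* and *NRP2*, and 0 higher, where 14.1% of all genes were called lower and 8.56% higher. For a call, limma had to give a Benjamini-Hochberg adjusted P under 0.05 and the log2 fold change had to reach 0.58 in size. With siATF4 in Sorafenib, 5 of the 8, the same genes without *NRP1*, were called lower and 0 higher, against 18.7% and 10.3% of all genes. The siATF4 comparisons share their siCtrl libraries with the contrast that chose *SLIT2* and *NTN4*. The places of these genes in the counts are therefore not independent of that choice. In bulk RNA, fewer cells that carry a transcript and less of it per cell cannot be told apart.

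Sorafenib in siCtrl cells raised 1 of the 8, *SLIT3*, and lowered 0, against 12.3% and 5.15% of all genes. In siY/T cells it raised 1, *SLIT2*, and lowered 0, against 5.83% and 4.14%. Both groups of siY/T libraries entered the contrasts that chose *SLIT2*, so this call is not independent of that choice. In siATF4 cells it raised 3, *SLIT3*, *NRP1* and *NRP2*, and lowered 0, against 5.68% and 2.94%. The calls are those of limma with Benjamini-Hochberg adjustment. At an unadjusted p under 0.05, with no fold threshold, limma gave 9003, 7929 and 7653 of all genes. The siATF4 effect differed between Sorafenib and DMSO in 5 of the 8 genes at an adjusted P under 0.05, where 41.1% of all genes did. Under quantile normalization it differed in 3 of the 8, where 5283 of the 13515 genes did. The siY/T effect differed in 3 of the 6 genes tested for it, against 22.0% of all genes. These differences are built from the contrasts that chose the set, so this count is not independent of that choice. All 6 groups shared 1 estimate of the spread, though the siY/T DMSO libraries differed most from each other. In a fit of the compared groups alone the siY/T effect differed in 2209 in place of 2978 genes, and *NRP1* was no longer called.

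Over the 12 libraries, which form 6 groups and differ in depth, the log2(CPM + 0.5) values of *NRP1* and *NRP2* had a Pearson r of 0.98, and *SLIT3* had 0.97 with *NRP2*, 0.96 with *NRP1* and 0.95 with *SEMA3A*. *SLIT2* and *NTN4* had 0.09. *SEMA3C* lay between -0.11 and 0.19 with each of the other 7. Among the 11151 genes whose mean reached 5 CPM, the patterns most like *SLIT2* over the 12 libraries were those of *PTPN3* (r = 0.995), *AMIGO2* (r = 0.992), *ARSL*, *LMF1* and *OSGIN2* (r = 0.984 each). Patterns like that of *NTN4* were those of *CCDC80* (r = 0.992), *TRIP10* (r = 0.962), *FNBP1* (r = 0.959) and *CAV1* (r = 0.956). These values are descriptions of 12 libraries.

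The other genes of the same systems were taken from 7 lists with 91 genes, of which 56 were tested. With siY/T in DMSO 17 were called higher and 3 lower, where 11.0% and 3.61% of all genes were, and the median log2 fold change was 0.35 over the lists and 0.07 over all genes. With siY/T in Sorafenib 17 were higher and 5 lower, against 6.11% and 3.84%, with medians of 0.13 and 0.05. With siATF4 in DMSO 5 were higher and 25 lower, where 8.56% and 14.1% of all genes were, with a median of -0.46 against 0 over all genes. In Sorafenib 3 were higher and 29 lower, against 10.3% and 18.7%, with a median of -0.60 against -0.01. Sorafenib raised 13 and lowered 0 in siCtrl cells, against 12.3% and 5.15% of all genes. It raised 7 and lowered 2 in siY/T cells, against 5.83% and 4.14%, and raised 9 and lowered 0 in siATF4 cells, against 5.68% and 2.94%. The balance over all genes depends on scaling. Under quantile normalization the share of lower genes among those called moved from 24.7% to 43.0% for siY/T in DMSO (35.7% in DESeq2). For siY/T in Sorafenib it moved from 38.6% to 46.6%. It moved from 62.3% to 53.7% for siATF4 in DMSO and from 64.6% to 51.5% for siATF4 in Sorafenib. For Sorafenib in siCtrl, siY/T and siATF4 cells it moved from 29.5% to 47.7%, 41.5% to 53.1% and 34.1% to 45.2%. In these comparisons, in this order, that setting called 1833, 1406, 2913, 3927, 2150, 1374 and 1008 of the 13515 genes. The lists then gave 14 higher and 5 lower with siY/T in DMSO and 16 and 6 with siY/T in Sorafenib. They gave 5 and 21 with siATF4 in DMSO and 3 and 26 with siATF4 in Sorafenib. With Sorafenib in the 3 kinds of cells they gave 8 and 0, 5 and 3, and 7 and 0.

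Among receptors of the ligands above, *ROBO2*, which binds Slits, was 15.1 and 15.2 CPM in siCtrl DMSO, 37.7 and 45.5 in siY/T DMSO and 8.27 and 7.23 in siATF4 DMSO libraries. It rose by 1.42 with siY/T (SE 0.08, limma, adjusted p = 2.59e-08) and fell by 0.93 with siATF4 (SE 0.08, limma, adjusted p = 5.43e-07). Its siRNA groups were ordered as those of *SLIT2*. The same order held in DMSO for *SLIT3*, *NRP1*, *NRP2*, *SEMA3F* and *EPHA4*, while the siY/T and siCtrl libraries of *ROBO1* overlapped. *ROBO3* was at 7.74 to 12.7 CPM. *ROBO3* was not called in DMSO, fell by 0.60 with siATF4 in Sorafenib (SE 0.07, limma, adjusted p = 5.73e-06) and had -0.53 with siY/T there (limma, adjusted p = 4.83e-05), below the fold threshold. Its siATF4 and siY/T effects differed between the treatments by -0.755 and -0.456 (SE 0.10 each, limma interaction, adjusted p = 9.30e-05 and 0.0075). Of 11 other netrins and netrin receptors only *NEO1*, the neogenin receptor, was tested. It rose by 0.59 with siY/T in DMSO and by 0.72 in Sorafenib (SE 0.05 each, limma, adjusted p = 7.78e-07 and 2.24e-07), and the first was no call under TMM scaling or quantile normalization, in edgeR or in DESeq2, at 0.52 to 0.53. *DCC*, *UNC5A*, *UNC5C* and *UNC5D* did not exceed 0.08 CPM, and with *UNC5B* at 0.30 CPM or less *NEO1* was the netrin receptor of these lists that reached 1 CPM.

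Of 11 other semaphorins tested, 6 rose and 1 fell with siY/T in DMSO, and 1 rose and 5 fell with siATF4. Over all genes 11.0% were called higher and 3.61% lower with siY/T in DMSO, and 8.56% and 14.1% with siATF4. The 6 that rose became 4 under TMM scaling and in DESeq2, and 5 under quantile normalization and in edgeR. *SEMA3F*, a ligand of NRP2, was 26.4 and 25.5 CPM in siCtrl DMSO, 67.9 and 62.1 in siY/T DMSO and 6.88 and 5.84 in siATF4 DMSO libraries. It rose by 1.31 with siY/T (SE 0.07, limma, adjusted p = 1.32e-08), fell by 1.95 with siATF4 (SE 0.07, limma, adjusted p = 1.12e-10) and rose by 1.61 with Sorafenib in siCtrl cells (SE 0.07, limma, adjusted p = 3.79e-09). *SEMA3E*, which signals through PLXND1, rose by 1.08 with siY/T in Sorafenib (SE 0.09, limma, adjusted p = 8.05e-07), and *SEMA7A*, which is anchored to the membrane, fell by 1.33 there (SE 0.08, limma, adjusted p = 3.04e-08). Of 7 other plexins tested, 1 rose with siY/T in DMSO, *PLXNB1* by 1.04 (SE 0.06, limma, adjusted p = 2.56e-08), and 5 fell and 1 rose with siATF4. Only 2 plexins fell with siATF4 in DMSO under quantile normalization, and 2 rose with siY/T in edgeR. *PLXNB1* fell by 1.55 with siATF4 in Sorafenib (SE 0.06, limma, adjusted p = 1.71e-10).

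Of 13 ephrins and Eph receptors tested, which signal between touching cells, 5 rose and 1 fell with siY/T in DMSO, and 1 rose and 9 fell with siATF4. The receptor *EPHA4* was 35.9 and 38.3 CPM in siCtrl DMSO, 123 and 138 in siY/T DMSO and 10.7 and 10.5 in siATF4 DMSO libraries, log2 fold changes of 1.80 and -1.76 (SE 0.07 each, limma, adjusted p = 9.01e-10 and 1.81e-10). *EPHA7* rose by 1.48 and fell by 1.71 in the same comparisons (SE 0.14 each, limma, adjusted p = 1.03e-06 and 1.50e-07). *EPHA2* moved the other way with siATF4, where it rose by 0.75 (SE 0.05, limma, adjusted p = 1.22e-08). Of 21 intracellular transducers tested, 3 rose and 1 fell with siY/T in DMSO, close to the 11.0% and 3.61% of all genes, and 5 rose and 2 fell in edgeR. With siATF4 in DMSO 1 rose and 5 fell, against 8.56% and 14.1% of all genes. *MICAL2*, an actin oxidase of a family that acts downstream of plexins, fell by 0.98 with siY/T and rose by 0.80 with siATF4 (SE 0.08 each, limma, adjusted p = 2.94e-07 and 9.39e-07), and *ABLIM1*, an actin-binding protein, fell by 1.28 with siATF4 (SE 0.05, limma, adjusted p = 8.89e-11). Of the repulsive guidance molecules only *RGMB* was tested, and it rose by 0.82 with siATF4 in DMSO (SE 0.04, limma, adjusted p = 3.78e-09).

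**Figure D3:**
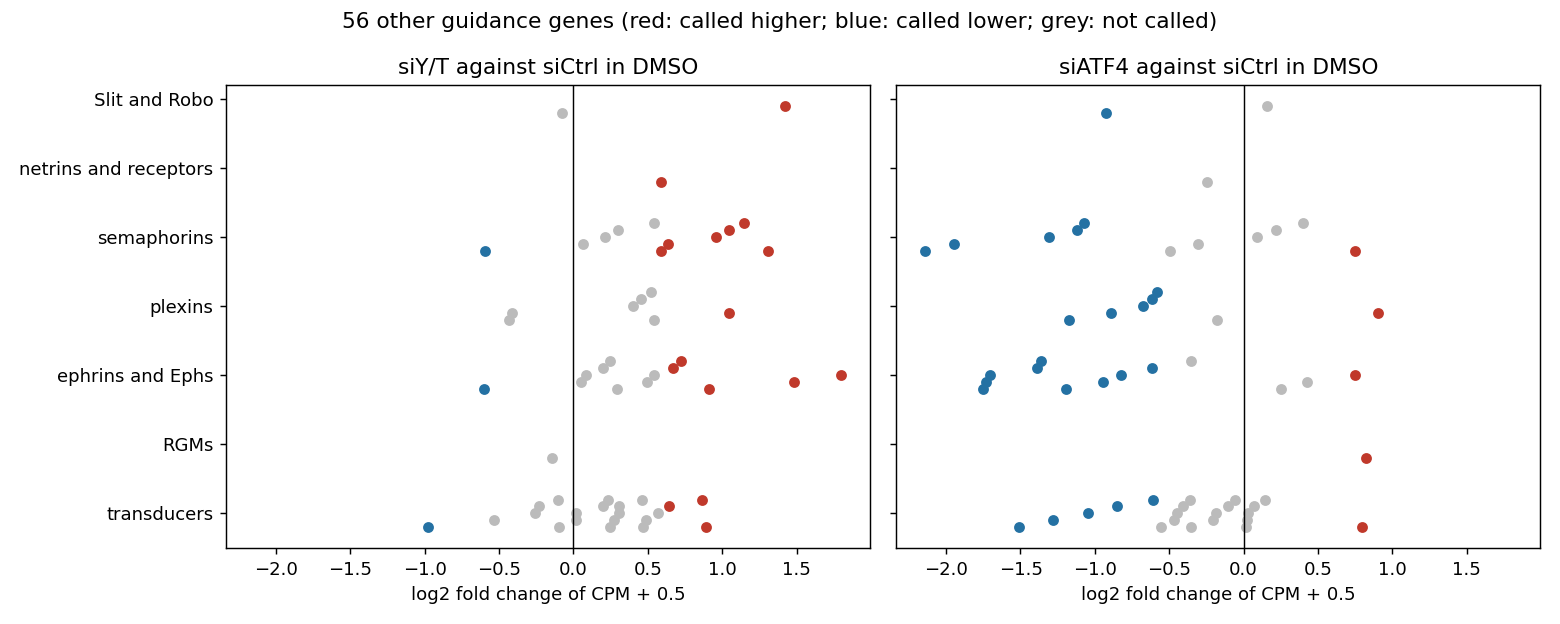
Log2 fold change of CPM + 0.5 (x axis) of the 56 other guidance genes tested, by list (y axis, with dots spread vertically for sight), for siY/T (left) and siATF4 (right) over siCtrl in DMSO. Red dots were called higher, 17 on the left and 5 on the right, blue dots were called lower, 3 and 25, and grey dots were not called.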

How the data were processed

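RNA from HLE cells was sequenced after poly(A) enrichment with a stranded kit. The authors mapped reads to hg19 with STAR, kept unique hits, counted them over RefSeq exons with QuasR and deposited 1 table of CPM, in which each library summed to 1000000. In each, 100% of values were whole multiples of 1 read within 0.01 read, so whole reads were recovered, with a median of 47939445 per library. All 12 columns were mapped. The methods describe biological triplicates, whereas 2 libraries per group were analysed here. The authors' own test was edgeR, and a filter on low values was not given in the sources used here.

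RefSeq named 26111 of the 26258 Entrez identifiers, and positions came from GENCODE on GRCh37. Promoters are on GRCh38.p14, and the builds were not mixed. Lengths are those of the reference (MANE) transcript.

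Genes that reached 1 CPM in 2 or more libraries, 13515 in all, were fitted as log2(CPM + 0.5) in R 4.3.3 by limma 3.58.1, with all 12 libraries in 1 fit of the 6 group means, a variance trend, two-sided tests and Benjamini-Hochberg adjustment over all genes. A call needed an adjusted P under 0.05 and a log2 fold change of 0.58 or more in size, the fold taken from the methods, and a difference between effects needed the adjusted P alone. Tests of the set in siY/T against siCtrl were not made, since that contrast chose it. The difference of the siY/T effect between treatments was tested for the filtered members other than *SLIT2* and *NTN4*. Those tests use the same contrasts and are not independent of the choice. The members and lists were chosen with earlier results of these data known. Named list genes were taken from the up to 3 largest rises and 3 largest falls called per list and comparison with a mean of at least 5 CPM. *DCC* and the UNC5 receptors were named after their values were seen. The same minimum held for the 5 genes most like *SLIT2* and the 5 most like *NTN4*, of which 1 is not reported here.

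On simulated reads with 13515 genes, 200 of 200 changed genes were recovered and 0 others called. The simulation covered only siATF4 against siCtrl in DMSO. Each changed gene had the same size of change, well above the fold threshold, and all genes and groups had the same dispersion. It does not speak to smaller changes, to differences between effects or to the wider spread of the siY/T DMSO libraries. Alternatives were pseudocounts of 0.1 and 1, no filter and a filter at 5 CPM, TMM scaling, quantile normalization, a replicate block, a fit of the compared groups alone, recovered reads in edgeR 4.0.16 or in DESeq2 1.42.0, unadjusted p, a fold of at least 1 and leaving out each library. Figures were drawn with Python 3.11.15 and matplotlib 3.10.9.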

Additional observations from a re-analysis of the deposited data

Results flagged for a closer look

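The effect of siATF4 differed between Sorafenib and DMSO, by the interaction term of limma with Benjamini-Hochberg adjustment over all genes, in 5 genes of the set. The difference in log2 fold change, Sorafenib minus DMSO, was 0.30 for *SLIT3*, 0.33 for *NTN4*, 0.40 for *SEMA3C*, 0.55 for *NRP1* and 0.62 for *NRP2*. For *SLIT3*, *NTN4*, *NRP1* and *NRP2* the log2 fold change with siATF4 was negative in both treatments and nearer 0 in Sorafenib. The siY/T effect differed by the same test in 3 genes, by -0.60 for *SLIT3*, -0.29 for *NRP1* and -0.51 for *NRP2*. In each of these 3 the siY/T effect was larger without Sorafenib. These siY/T tests are not independent of the choice of the set, which used the same contrasts. The calls for *NTN4* and *SEMA3C* with siATF4, and for *NRP1* and *NRP2* with siY/T, were lost without single libraries, as given with each gene. Such differences were called for 41.1% of all genes with siATF4 and for 22.0% with siY/T.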

How the results depend on the processing

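The 6 and 5 members called lower with siATF4 in DMSO and Sorafenib stayed within 1.5 times those counts under every alternative run. Single calls were still lost. At a fold of at least 1, *SLIT2* with siATF4 in DMSO (-0.772) and *NRP2* with siATF4 in Sorafenib (-0.898) were not called. *NRP2* with siATF4 in Sorafenib was also not called under quantile normalization (-0.546). With a fold threshold of at least 1, Sorafenib changed 0 members in siCtrl cells and 1 in siATF4 cells, and over all genes 529, 383, 1041, 1484, 497, 191 and 248 were called in place of 1973, 1345, 3067, 3911, 2361, 1348 and 1166 in siY/T DMSO, siY/T Sorafenib, siATF4 DMSO, siATF4 Sorafenib, and Sorafenib in siCtrl, siY/T and siATF4 cells. Members with a different siATF4 effect numbered 3 with no filter, 3 under quantile normalization and 3 to 5 when 1 library was left out. Over all genes 5141 of 20710 were called with no filter and 5283 of 13515 under quantile normalization. When 1 library was left out, 4187 to 4806 of the 13515 genes were called. For the siY/T effect they numbered 1 to 5 when 1 library was left out, 1 without replicate 1 of siCtrl DMSO or replicate 1 of siCtrl Sorafenib and 5 without replicate 2 of siY/T DMSO. Over all genes that count was 2978, and it was 4903 without adjustment and 1581 to 4575 when 1 library was left out. Members raised by Sorafenib in siY/T cells numbered 1 to 2, with *SEMA3A* added without replicate 2 of siY/T DMSO. Among tested values, sign changed only near 0. *NTN4* with Sorafenib in siCtrl cells was -0.005 to 0.058 when 1 library was left out, -0.005 under TMM scaling, in edgeR and without replicate 1 of siCtrl Sorafenib and -0.015 in DESeq2, and *NRP2* there was -0.040 under quantile normalization. *SEMA3C* with Sorafenib was -0.431 to 0.003 in siY/T cells and -0.054 to 0.001 in siATF4 cells when 1 library was left out, the high ends without replicate 2 of siY/T DMSO and without replicate 2 of siATF4 Sorafenib. In the difference of the siY/T effect, *ROBO1* was -0.016 under quantile normalization, -0.080 to 0.127 when 1 library was left out and -0.020 without replicate 1 of siY/T Sorafenib, and *SEMA3C* was -0.003 to 0.431, both low ends without replicate 1 of siY/T DMSO. The cause was not tested.

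Deviations of same-numbered libraries correlated between -0.28 and 0.19 over 15 pairs of groups, which gave no clear sign of pairing by number. Such low values cannot show whether same-numbered libraries were handled together. With the replicate number as a block, 6 and 5 members were lower with siATF4, no count of members moved, and 1973, 1344, 3067, 3911, 2361, 1348 and 1166 genes were called over all genes. Of 119 named list gene changes, 0 turned sign and 16 lost the call under at least 1 of TMM scaling, quantile normalization, edgeR and DESeq2. With 2 libraries per group, and 53 to 109 reads for *SLIT2* in siATF4 and siCtrl DMSO libraries, small differences in the low genes were not resolvable.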
